A study of Neurospora crassa with 24 samples.

Results

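The genes described here are 141 light-induced genes of *N. crassa* whose mRNA in the dark did not depend on VE-1 by more than 2-fold, out of 9412 genes that passed a filter on low counts. They were chosen on measured levels, as the mean of 3 libraries per condition in CPM (counts of a gene scaled to a common library size). The wild type had to hold at least 3 times as much mRNA in light as in the dark, every light library had to be above every dark library, the light mean had to reach 10 CPM, and the ∆*ve-1* mutant in the dark had to lie between 0.5 and 2 times the wild type in the dark. Of 629 genes that met the first 3 conditions, 465 were more than 2 times higher in ∆*ve-1* than in the wild type in the dark and 23 were under 0.5 of it, which left the 141.

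RNA was sequenced from 4 strains, the ∆*ve-1* ∆*wc-1* double mutant, the ∆*ve-1* mutant, the ∆*wc-1* mutant and the wild type, each kept in light or in the dark, with 3 libraries for each of the 8 conditions. Plates of sexual development medium were incubated for 7 days at 22°C, and tissue was taken 1 day before fertilization. The methods state that tissue of biological replicates was combined per sample point, and they do not say how the pools correspond to libraries, so the spread between libraries may be partly technical. By their labels, ∆*ve-1* lacks the gene for VE-1, ∆*wc-1* the gene for WC-1 and the double mutant both.

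In *N. crassa*, blue light is sensed mainly by WC-1, a photoreceptor that is also a zinc finger transcription factor and that works with WC-2 as the white-collar complex. The complex activates genes for carotenoid synthesis, for circadian clock components and for VVD, a small photoreceptor that turns the response down again. VE-1 belongs to the velvet proteins, fungal regulators that couple light to asexual and sexual development.

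The mRNA of the deleted genes was checked first. The *ve-1* mRNA averaged 5.80 CPM in light and 2.80 CPM in the dark in ∆*ve-1*, 4.60 and 5.79 CPM in libraries labelled ∆*ve-1* ∆*wc-1*, and 233 and 262 CPM in the wild type. The *wc-1* mRNA averaged 24.97 CPM in light and 59.9 CPM in the dark in the libraries labelled ∆*wc-1*, and 51.5 and 67.3 CPM in those labelled ∆*ve-1* ∆*wc-1*, against 30.1 and 21.8 CPM in the wild type. The *wc-1* counts thus did not show the deletion. In light labelled ∆*wc-1* the mean was 0.829 of wild-type light with overlapping libraries, and in the other 3 of these conditions it was above the wild type in the same light condition. The *vvd* and *frq* genes, which WC-1 is known to activate, were low, as the label ∆*wc-1* says. The *vvd* mRNA averaged 4.49 CPM in light labelled ∆*wc-1* and 19.2 CPM in light labelled ∆*ve-1* ∆*wc-1*, against 781 CPM in wild-type light, and *frq* averaged 7.18 and 22.6 CPM, against 213 CPM. The light-responsive gene *cry* averaged 6.25 CPM in light labelled ∆*wc-1* and 118 CPM in light labelled ∆*ve-1* ∆*wc-1*, against 220 CPM in wild-type light. It was thus far below the wild type only with the first label. Because the counts of *wc-1* itself do not show the deletion, these are called the libraries labelled ∆*wc-1* and ∆*ve-1* ∆*wc-1*. Total counts were 30246878 to 42697941 per library. Replicate 1 of the libraries labelled ∆*wc-1* in light stood apart from its group. Its rank correlation with the other replicates was 0.793 to 0.808, its 10 most abundant genes held 26.7% of the counts against 6.91 to 7.31% in replicates 2 and 3, and 93.3% of its counts from 100 to 1000 were even numbers against 62.2 to 63.9%. The wild-type light libraries also had 80.3 to 90.2% even counts, against 59.8 to 63.7% in wild-type dark. In ∆*ve-1* dark, which the rule also used, 73.5 to 82.6% were even, against 61.6 to 71.2% in ∆*ve-1* light. The part of this in the results was not tested. The main values for light labelled ∆*wc-1* are given with and without replicate 1. Replicate 1 of the dark libraries and replicate 3 of the light libraries labelled ∆*ve-1* ∆*wc-1* had a rank correlation of 0.992, the highest of any pair of libraries. With this label, replicate 2 in the dark and replicate 2 in light had 0.964, and dark replicate 3 and light replicate 1 had 0.963. Within its groups the values were lower, at 0.871 to 0.945 in the dark and 0.894 to 0.905 in light. Each of its dark libraries was thus closer to a light library than to its own group.

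The tissue expressed marker genes of both developmental programmes. The summed level of 7 conidiation genes, none among the 141, was 8630 to 19060 CPM in light and 9341 to 19723 CPM in the dark with the label ∆*ve-1* ∆*wc-1*. In ∆*ve-1* it was 38616 to 81005 CPM in light and 18046 to 36276.5 CPM in the dark, and with the label ∆*wc-1* 689 to 3823 and 1404 to 4486 CPM. The wild type had 85071 to 139325 CPM in light and 1024 to 3459 CPM in the dark. The gene *eas* made up much of the sum, with 26272 CPM on average in ∆*ve-1* light, against 95410 CPM in wild-type light. The means of *con-13*, *fl* and *acon-3* were also lower in ∆*ve-1* light. Those of *con-6*, *con-8* and *con-10* were higher, at 20806, 6843 and 8333 CPM, against 13454, 2933 and 3397 CPM in wild-type light. The summed level of 5 protoperithecial genes, also none among the 141, was 625 to 1282 CPM in ∆*ve-1* light and 382 to 602 CPM in ∆*ve-1* dark, against 3912 to 9179 and 861 to 7233 CPM in the wild type. It was 616 to 1046 and 533 to 6472 CPM with the label ∆*ve-1* ∆*wc-1*, and 1992 to 4293 and 2877 to 6092 CPM with the label ∆*wc-1*. In ∆*ve-1* light, *poi-2* and *Asm-1* averaged 628 and 243 CPM, against 4758 and 1223 CPM in wild-type light. The means of *T*, *fsd-1* and *pre-1* were closer, at 5.54, 65.1 and 6.69 CPM against 4.92, 73.3 and 7.28 CPM. No marker was at 0 in a condition. More cells of a type and more RNA per cell cannot be told apart in such samples, and the part of tissue composition in the results was not tested.

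The contrast that chose the genes is described first, without a test. Light over dark in the wild type ranged from 3.01 to 157 times, with a median of 4.02 times, and the wild-type light mean ranged from 11.9 to 5861 CPM with a median of 115 CPM. The ∆*ve-1* level in the dark was 0.506 to 1.96 times that of the wild type, with a median of 1.30 times. Just inside the 3-fold limit were NCU01838 and NCU02742 at 3.01 and 3.03 times, and just outside it NCU02130 and NCU08146 at 2.97 and 2.95 times. At the limit of 10 CPM, *gh47-3* and *gh93-1* were inside at 11.9 and 13.7 CPM, and NCU06810 and NCU02847 outside at 9.33 and 8.95 CPM. At the lower limit for ∆*ve-1* over the wild type in the dark, NCU02328 and NCU01607 were inside at 0.506 and 0.512, and NCU01380 and NCU03978 outside at 0.479 and 0.451. At the upper limit, NCU04862 and *thi-5* were inside at 1.96 and 1.95, and NCU06112 and NCU02683 outside at 2.01 and 2.02. Some known photoresponse genes missed the group by far. In ∆*ve-1* dark, *cry* had 7.88 times, *con-6* 10.1 times and *eas* 20.5 times the wild-type dark level. Others missed it by less. The phytoene desaturase gene *al-1* had 2.28 times the wild-type dark level in ∆*ve-1* dark, the photoreceptor gene *vvd* had 2.74 times, and the clock gene *frq* was 2.93 times higher in light than in the dark in the wild type.

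Membership depended on the scaling between libraries. The values use TMM factors, which correct for libraries in which few genes take many reads. With library totals alone, the median of all genes for light minus dark in the wild type moved by -0.72 on the log2 scale. The rule then chose 80 genes, of which 36 were among the 141. The median of the 141 genes for light minus dark in the wild type was 2.00 with TMM and 1.26 with library totals, both on the log2 scale, and that for ∆*ve-1* minus the wild type in the dark was 0.34 and -0.43. The second of these medians changed sign with the scaling. For the other comparisons library totals moved the median of all genes by 0.27 (light minus dark in ∆*ve-1*), -0.51 (light minus dark labelled ∆*wc-1*), 0.02 (light minus dark labelled ∆*ve-1* ∆*wc-1*) and 0.15 (light labelled ∆*ve-1* ∆*wc-1* minus ∆*ve-1* light), and the sign of the median of the 141 genes was the same under both scalings in these 4.

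**Figure D1:**
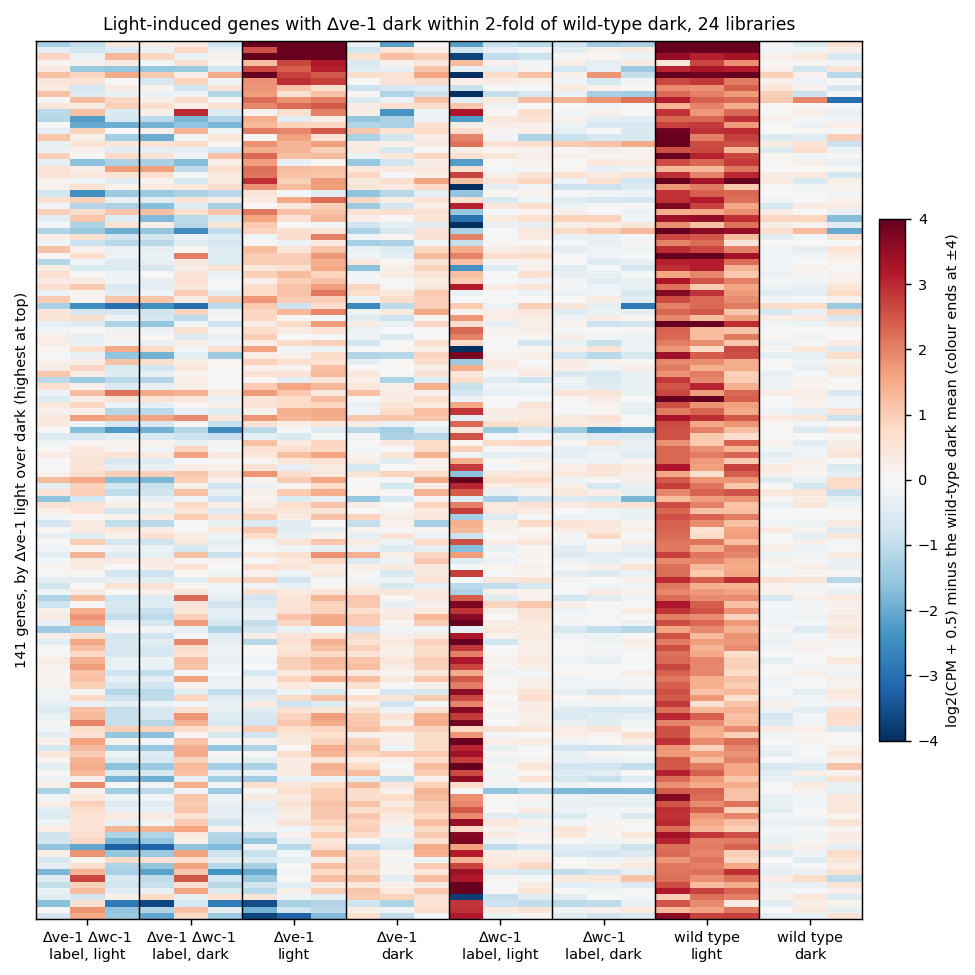
Levels of the 141 genes (vertical axis, 1 line per gene) in all 24 libraries (horizontal axis, 3 libraries per condition), as log2(CPM + 0.5) minus the mean of wild-type dark; genes are ordered by ∆*ve-1* light over dark. The wild-type light libraries are high by the rule, a small group at the top is also high in ∆*ve-1* light, and of the libraries labelled ∆*wc-1* in light, replicate 1 alone is high for most genes further down.

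Across the 8 conditions, ∆*ve-1* in light had the highest mean for 5 of the 141 genes, the libraries labelled ∆*wc-1* in light for 20 and the wild type in light for 116. Without replicate 1 labelled ∆*wc-1* in light these counts were 5, 0 and 136. The median gene stood at 1.56 times its wild-type dark level in ∆*ve-1* light, at 1.10 and 1.04 times in light and dark in libraries labelled ∆*ve-1* ∆*wc-1*, and at 1.70 and 0.915 times in light and dark in those labelled ∆*wc-1* (1.07 times in light without replicate 1). Within 0.5 to 2 times wild-type dark were 98 genes in ∆*ve-1* light, 128 in light labelled ∆*ve-1* ∆*wc-1*, 122 in its dark, 77 in light labelled ∆*wc-1* (134 without replicate 1) and 134 in its dark. In ∆*ve-1* light the median gene reached 0.354 of its wild-type light level. There 25 genes kept at least 0.5 of that level and 5 reached it. Those 5 were NCU01926, NCU08768, NCU14012, NCU17113 and *gh47-3*. All of these ratios share the wild-type libraries used to choose the genes, so they are descriptions.

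The members span several functions, and both fixed genes of carotenoid synthesis among them are classic targets of light. The *al-2* gene encodes phytoene synthase, the first committed step to carotenoids, and *al-3* encodes geranylgeranyl pyrophosphate synthase, which makes its substrate. In libraries labelled ∆*ve-1* ∆*wc-1*, *al-2* had 43.04, 104 and 56.2 CPM in light and 64.9, 143 and 49.3 CPM in the dark. In ∆*ve-1* it had 239.8, 218 and 318 CPM in light and 119.9, 82.5 and 97.4 CPM in the dark. Light and dark libraries thus overlapped with the first label and did not overlap in ∆*ve-1*. With the label ∆*wc-1*, *al-2* had 89.0, 60.2 and 64.6 CPM in light and 43.4, 55.8 and 36.3 CPM in the dark, also without overlap. In the wild type it had 844, 425 and 444 CPM in light, against 56.4, 57.7 and 54.2 CPM in the dark, so every other light library stayed below the wild-type light libraries.

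The *al-3* mRNA had 64.2, 25.8 and 34.1 CPM in light labelled ∆*ve-1* ∆*wc-1*. In ∆*ve-1* light it had 258, 64.8 and 85.6 CPM, against 27.7, 47.8 and 97.8 CPM in ∆*ve-1* dark. These groups overlapped, since replicates 2 and 3 in light were below replicate 3 in the dark. The wild type had 491, 396 and 558 CPM in light, against 85.0, 94.8 and 65.1 CPM in the dark. Of the 5 genes of the carotenoid list, *al-2* and *al-3* were members. The other genes of the list were *al-1*, *cao-2* and *ylo-1*, with wild-type light over dark of 46.3, 1.84 and 0.544 times.

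The other 8 fixed lists held no member. They covered the white-collar complex and clock, other photoreceptors and photolyase, conidiation and blue-light-induced genes, light-induced transcription factors, clock-controlled genes, stress genes, the velvet complex and protoperithecial markers, and together with the carotenoid genes they held 59 genes. In light, the libraries labelled ∆*ve-1* ∆*wc-1* were lower than ∆*ve-1* for 2 of 5 carotenoid genes (*al-1* and *al-2*), 1 of 7 photoreceptor genes (*vvd*) and 1 of 5 clock genes (*frq*), by edgeR's quasi-likelihood test, and higher for none. Of all genes 0.287% were lower and 0.414% higher in this comparison. For light against dark in ∆*ve-1*, *vvd* was called higher. No other gene of the lists was called in the 5 comparisons tested. Despite its name, the list of light-induced transcription factors had wild-type light over dark of only 0.217 (*vsd-8*) to 1.85 times (*bek-1*). None of its genes thus met the 3-fold limit.

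The comparison of light libraries between the libraries labelled ∆*ve-1* ∆*wc-1* and ∆*ve-1* used no library of the rule. It asks how much of the level left in ∆*ve-1* light is lower when the label also carries ∆*wc-1*. With edgeR's quasi-likelihood test, calling genes whose Benjamini-Hochberg adjusted p was below 0.05 and whose log2 fold change was beyond 1 in either direction, 10 of the 141 genes (7.09%) fell, against 27 of 9412 genes (0.287%). None of the 141 rose, against 39 genes (0.414%) of all. The 3 light libraries labelled ∆*ve-1* ∆*wc-1* all lay below the 3 of ∆*ve-1* for 41 of the 141 genes (29.1%), against 4.94% of all genes, and above them for 1, NCU05630, against 5.17% of all genes. Among the 465 light-induced genes that were raised in ∆*ve-1* dark, 7 (1.51%) fell and 52 (11.2%) lay below without overlap; the difference from the 141 was not tested. The median log2 fold change was -0.45 for the 141 genes, -0.30 for the 465 and 0.05 for all genes.

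Of the 10 genes that fell, NCU17113 and NCU16408 had the largest log2 fold changes. Of these, NCU16408 was close to the detection limit in light labelled ∆*ve-1* ∆*wc-1*. NCU17113, a protein-coding gene with no assigned function on chromosome VI from 2278124 to 2279737 of assembly NC12, had 0.415, 0.66997 and 2.46 CPM in light labelled ∆*ve-1* ∆*wc-1*, against 415, 319.6 and 311 CPM in ∆*ve-1* light. Its log2 fold change was -8.18 ± 1.14 (SE, n = 3 each, edgeR adjusted p = 0.000859). It was the only member within 20000 bases of *vvd*. In the libraries labelled ∆*wc-1* NCU17113 had 0, 0.734 and 0.608 CPM in light and 0.834, 0.373 and 0.438 CPM in the dark. In wild-type light it had 185, 157 and 547 CPM, against 1.68, 1.06 and 2.93 CPM in the dark. High levels were thus seen in the light libraries of ∆*ve-1* and of the wild type and in none of the other 18.

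NCU16408, on chromosome I from 6050368 to 6051530, had 0.125, 0 and 0.0834 CPM in light labelled ∆*ve-1* ∆*wc-1*, against 4.46, 24.9 and 62.7 CPM in ∆*ve-1* light. The log2 fold change was -8.56 ± 1.32 (SE, n = 3 each, edgeR adjusted p = 0.00171). Its size is set poorly, because 3 counts correspond to 0.0623 to 0.126 CPM in the lower libraries. In libraries labelled ∆*wc-1* it had at most 0.274 CPM in light, and in the wild type 34.1, 47.2 and 14.2 CPM in light and 0.268, 0.246 and 0.510 CPM in the dark. It is the second gene with high levels in only 6 of 24 libraries.

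NCU01926 and NCU14012 are neighbours on chromosome I, 415 bases apart, and RefSeq lists the second as a noncoding RNA. NCU01926 had 11.3, 4.94 and 15.9 CPM in light labelled ∆*ve-1* ∆*wc-1*, against 177, 105 and 191 CPM in ∆*ve-1* light, a log2 fold change of -3.88 ± 0.71 (SE, n = 3 each, edgeR adjusted p = 0.00708). NCU14012 had 15.7, 13.7 and 22.0 CPM, against 42.9, 54.9 and 63.3 CPM, a log2 fold change of -1.64 ± 0.33 (edgeR adjusted p = 0.0140, n = 3 each). Both averaged more in ∆*ve-1* light than in wild-type light, by 2.46 and 1.51 times. In ∆*ve-1* dark, NCU01926 had 9.30, 14.2 and 12.2 CPM and NCU14012 had 13.9, 18.04 and 18.9 CPM. Both neighbours thus had their highest mean of the 8 conditions in ∆*ve-1* light. In light labelled ∆*wc-1*, NCU01926 had 0, 2.76 and 3.10 CPM, all below the 6.13, 6.28 and 5.04 CPM of the dark.

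The *mig-3* gene, annotated as a 12-oxophytodienoate reductase, an enzyme type of the old yellow enzyme family, had 33.0, 8.96 and 8.50 CPM in light labelled ∆*ve-1* ∆*wc-1*, against 166, 137 and 226 CPM in ∆*ve-1* light. The log2 fold change was -3.39 ± 0.55 (SE, n = 3 each, edgeR adjusted p = 0.00251). The wild-type level of *mig-3* in light was 218, 249.7 and 229 CPM, so ∆*ve-1* kept 0.759 of it on average. NCU08768 had 65.1, 66.8 and 78.0 CPM in light labelled ∆*ve-1* ∆*wc-1*, against 146, 388 and 551 CPM in ∆*ve-1* light, with a log2 fold change of -2.37 ± 0.52 (edgeR adjusted p = 0.0299, n = 3 each). NCU07740 fell by 1.84 on the log2 scale to 2.26, 4.98 and 3.79 CPM, against 11.99, 11.6 and 15.9 CPM in ∆*ve-1* light (edgeR adjusted p = 0.0342, n = 3 each). For *al-2* the log2 fold change was -1.93 ± 0.40 (edgeR adjusted p = 0.0203, n = 3 each), and for *al-3*, which did not pass, -1.72 ± 0.63 (edgeR adjusted p = 0.365), although its libraries in light did not overlap either.

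A pair of glycoside hydrolase genes completed the 10. The *gh47-3* gene, of the family that includes alpha-mannosidases, had 2.39, 2.51 and 1.58 CPM in light labelled ∆*ve-1* ∆*wc-1*, against 6.82, 15.8 and 13.5 CPM in ∆*ve-1* light. Its log2 fold change was -2.48 ± 0.52 (SE, n = 3 each, edgeR adjusted p = 0.0203). The *gh71-2* gene, of the family of alpha-1,3-glucanases, had 6.23, 4.86 and 3.88 CPM, against 44.3, 10.9 and 18.6 CPM (-2.30 ± 0.53, edgeR adjusted p = 0.0468, n = 3 each). It had passed by little, and it passed in 14 of 32 alternative fits. NCU01926, *mig-3* and NCU17113 passed in all 32, and NCU16408 in 31.

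Single libraries moved this count. Without replicate 2 or 3 of ∆*ve-1* light, 6 and 4 members fell, with 32 and 27 of all genes called. Without replicate 1, 2 or 3 of the light libraries labelled ∆*ve-1* ∆*wc-1*, 5, 6 and 5 members were called. Of all genes 56, 66 and 52 were called there. NCU01926, NCU16408, *mig-3* and NCU17113 were called in each of these 5 fits. In ∆*ve-1* light the 10 most abundant genes held 8.62 to 19.4% of the counts and 61.6 to 71.2% of counts were even, and in light labelled ∆*ve-1* ∆*wc-1* these were 7.43 to 21.3% and 60.4 to 81.3%. With either value as a covariate 18 members were called, the 10 included, of which 16 (abundant genes) and 17 (even counts) were lower. Over all genes these fits called 131 and 184. The summed level of the conidiation markers given above was also lower in the light libraries labelled ∆*ve-1* ∆*wc-1* than in ∆*ve-1* light. Of these markers, *con-6*, *con-8*, *con-13* and *eas* were lower without overlap. The libraries of *con-10* and *acon-3* overlapped, and *fl* averaged 184 CPM, against 176 CPM in ∆*ve-1* light.

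**Figure D2:**
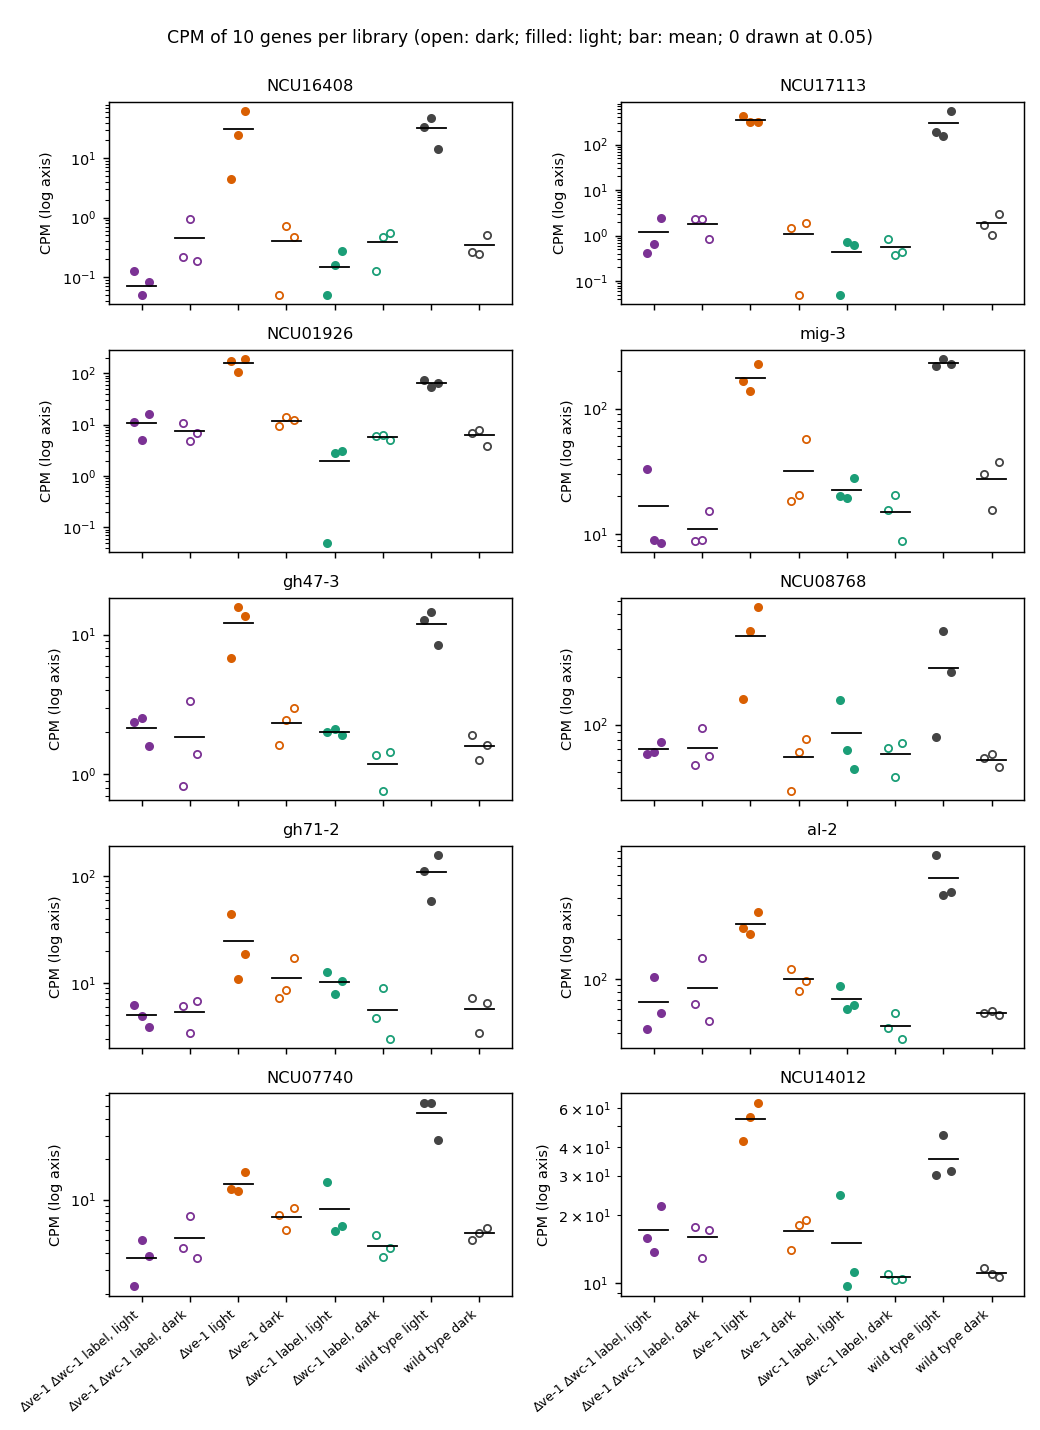
CPM (vertical axes, log scale) of the 10 genes that were lower in libraries labelled ∆*ve-1* ∆*wc-1* than in ∆*ve-1* under light, for each of 24 libraries (horizontal axis, conditions); filled points are light, open points dark, and bars are means. The light libraries labelled ∆*ve-1* ∆*wc-1* all lie below those of ∆*ve-1*, from 0.415 to 2.46 CPM against 311 to 415 CPM for NCU17113.

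Light against dark within ∆*ve-1* is described only, because its dark libraries entered the rule, which capped them at 2 times wild-type dark. Among the 141 genes 4 met the same call rule as higher in light, NCU17113, NCU16408, NCU01926 and NCU14012, against 0.085% of all genes, and 0 as lower, against 0.0212%. Light and dark libraries did not overlap for 29 higher genes, against 9.21% of all genes, and for 3 lower genes, against 6.71%. Nothing is read from these shares, since the rule used the dark libraries. The median log2 fold change was 0.36 for the 141 genes, 0.01 for all genes and -0.30 for the 465 genes raised in ∆*ve-1* dark. The number meeting the call rule was 0 without replicate 1 of ∆*ve-1* dark. It was 1 without replicate 2 or 3 of ∆*ve-1* dark, without replicate 2 or 3 of ∆*ve-1* light, without replicate 1 or 2 of wild-type dark and without replicate 2 of the dark libraries labelled ∆*wc-1*. It was 2 without replicate 1 or 3 of the last group.

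By the ratio of means, 27 of the 141 genes were at least 2 times higher in ∆*ve-1* light than in ∆*ve-1* dark, 111 were between 0.5 and 2 times and 3 were at 0.5 or below. The ratio was 316 for NCU17113, 77.1 for NCU16408, 13.2 for NCU01926, 5.81 for NCU08768, 5.55 for NCU00848 and 5.50 for *mig-3*. NCU00848, annotated as an integral membrane protein, had 177, 55.9 and 47.1 CPM in ∆*ve-1* light and 12.9, 12.6 and 25.01 CPM in ∆*ve-1* dark, which do not overlap. Its wild-type levels were 244, 127 and 337 CPM in light and 16.1, 9.07 and 3.42 CPM in the dark.

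The 3 genes that lay lower in ∆*ve-1* light than in its dark, without overlap, were NCU05630, *gh93-1* and NCU06128. NCU05630, which encodes a protein with a cupin domain, had 0.425, 0.755 and 2.99 CPM in ∆*ve-1* light, against 17.8, 5.62 and 10.6 CPM in ∆*ve-1* dark, and 141, 76.6 and 77.8 CPM in wild-type light, against 8.84, 9.37 and 17.0 CPM in wild-type dark. It was the member with the lowest share of its wild-type light level in ∆*ve-1* light, 0.0141. The *gh93-1* gene, a glycoside hydrolase, had 0.657, 2.10 and 1.59 CPM in ∆*ve-1* light and 4.67, 3.503 and 6.19 CPM in ∆*ve-1* dark. NCU06128 had 66.7, 42.3 and 36.99 CPM in ∆*ve-1* light and 97.3, 89.3 and 73.9 CPM in ∆*ve-1* dark. None of the 3 met the call rule.

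The difference between the light effect in ∆*ve-1* and that in libraries labelled ∆*ve-1* ∆*wc-1* also rests on the dark libraries of the rule and is described only. One of the 141 genes, NCU17113, met the call rule with a larger effect in ∆*ve-1*, against 0.0212% of all genes, and 0 with a smaller one, against 0.0212%.

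Light against dark in libraries labelled ∆*ve-1* ∆*wc-1* used no library of the rule. By edgeR's quasi-likelihood test 0 of the 141 genes were called higher and 0 lower, as for all genes (0% in each direction). At an unadjusted p below 0.05, 0 members were higher, against 1.05% of all genes, and 1 was lower, NCU09548, against 0.276%. DESeq2 and limma-voom also called 0 members. The 3 light libraries lay above the 3 dark libraries for 2 members, against 0.85% of all genes, and below them for 2, NCU16408 and NCU00245, against 1.01%. The higher ones were *tgl-1*, a lipase gene with 2.31, 7.70 and 2.23 CPM in light and 0.639, 1.32 and 1.99 CPM in the dark, and *mdr-10*, a multidrug transporter gene with 18.2, 21.4 and 17.6 CPM and 17.0, 12.8 and 17.4 CPM. The median log2 fold change was 0.11 for the 141 genes and 0.00 for all genes. Per light library, against the mean of the dark ones, the median of the 141 genes was 0.10, 0.35 and -0.35, so the libraries fell on both sides of 0. As given above, each dark library with this label was closer to a light library than to its own group. The part of this in the 0 calls was not tested.

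**Figure D3:**
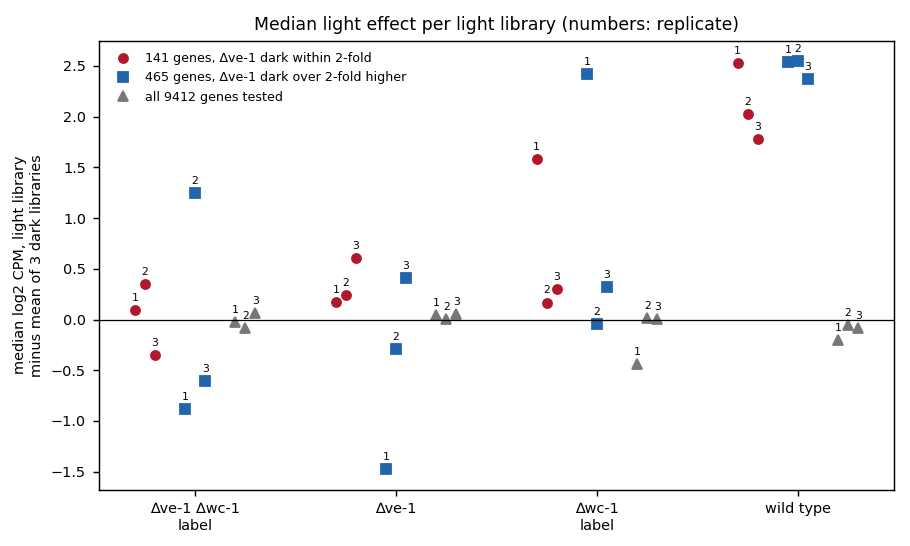
Median over genes of log2 CPM in each light library minus the mean of the 3 dark libraries of the strain (vertical axis), for 4 strains (horizontal axis); circles are the 141 genes, squares the 465 light-induced genes raised in ∆*ve-1* dark and triangles all 9412 genes, with the replicate number above each point. The 141 genes lie at 0.17 to 0.61 in ∆*ve-1* and at 1.78 to 2.53 in the wild type, where they were chosen, and replicate 1 of the libraries labelled ∆*wc-1* stands at 1.58 against 0.17 and 0.31 for replicates 2 and 3.

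Light against dark in the libraries labelled ∆*wc-1* turned on replicate 1. By edgeR's quasi-likelihood test 0 of the 141 genes were called higher and 0 lower, as for all genes (0% in each direction), and the smallest adjusted p of a member was 0.197. At an unadjusted p below 0.05, 66 members (46.8%) were higher, against 11.9% of all genes, and 2, NCU01926 and NCU09274, were lower, against 2.11%. DESeq2 on all libraries called 21 members, DESeq2 on the 6 libraries compared 0, and limma-voom 5 (4 higher and 1 lower). Over all genes these fits called 244, 104 and 286. Light libraries lay above dark libraries for 56 members, against 14.7% of all genes, and below them for 8, against 15.1%. The median log2 fold change was 0.93 for the 141 genes and -0.07 for all genes. Without replicate 1 in light the median of the 141 was 0.24, 3 members had an unadjusted p below 0.05 and 0 were called. Without replicate 2 in light, 12 members were called, all higher, and 116 of all genes.

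The ratio of light to dark means showed the same split between libraries. With all 3 light libraries, 69 of the 141 genes were at 2 times or more, and with replicates 2 and 3 only, 4 were. Replicate 1 was above replicates 2 and 3 for 100 of the 141 genes and above every wild-type light library for 41. The *gh17-4* gene, of a family of beta-1,3-glucanases that act on the cell wall, had 4472, 429 and 541 CPM in light labelled ∆*wc-1*, against 304, 231 and 247 CPM in its dark. Its wild-type light libraries had 2154, 813 and 928 CPM, against 352, 293 and 499.9 CPM in the dark. Replicate 1 was thus far above its group for this gene, and replicates 2 and 3 were still above all 3 dark libraries.

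A light difference in ∆*ve-1* and a high level in replicate 1 labelled ∆*wc-1* were seen mostly in separate members, as described without a test. Of 20 members that were at least 2 times higher in ∆*ve-1* light than in its dark without overlap, 1 (5.00%) was at 2 times or more in the libraries labelled ∆*wc-1*, and of the other 121 members 68 (56.2%) were. Without replicate 1 these counts were 0 of 20 and 4 of 121, so the contrast rests on that library. The median of replicate 1 labelled ∆*wc-1* was 0.33 for the 20 genes and 2.08 for the 121, on the log2 scale, and in replicates 2 and 3 it was 0.02 and 0.07 for the 20 and 0.19 and 0.34 for the 121. Across the 141 genes, the light effects in the 2 strains had Pearson's r = -0.45 and Spearman's rho = -0.53, and r = -0.17 and rho = -0.075 without replicate 1. Over all 9412 genes r was -0.064 and rho -0.088, and 0.042 and 0.0995 without replicate 1. These are descriptions across genes, which share libraries and are not replicates.

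**Figure D4:**
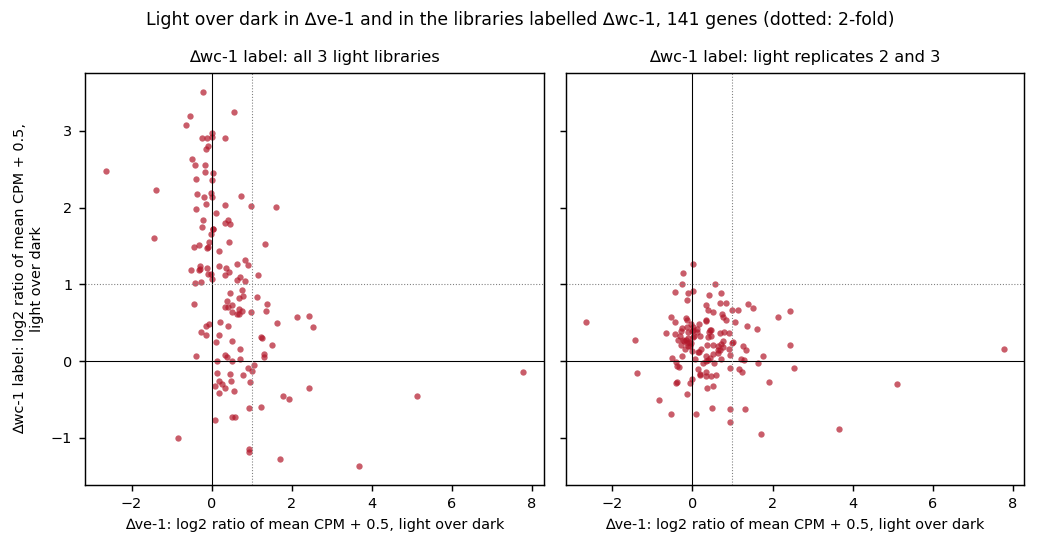
Log2 ratio of mean CPM + 0.5 in light over dark in the libraries labelled ∆*wc-1* (vertical axis) against that in ∆*ve-1* (horizontal axis), 1 point for each of the 141 genes, with dotted lines at 2-fold; the left panel uses all 3 light libraries labelled ∆*wc-1* and the right panel replicates 2 and 3. On the left 69 genes lie at 2-fold or above in the libraries labelled ∆*wc-1*, on the right 4.

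The 6 most abundant members in wild-type light had means from 748 to 5861 CPM. NCU05395, of no assigned function, had 718, 342 and 325 CPM in light labelled ∆*ve-1* ∆*wc-1*. In ∆*ve-1* it had 823, 1004 and 1517 CPM in light and 287, 469 and 932 CPM in the dark, which overlap. In the wild type it had 10312, 4989.6 and 2281 CPM in light, against 495, 974 and 961 CPM in the dark. The other 5 were NCU16001, encoded on the mitochondrial genome, NCU02188, *gh17-4*, NCU01838 and NCU06986, with ∆*ve-1* light means of 282, 423, 266, 409 and 327 CPM and wild-type light means of 1543, 1452, 1298, 879 and 748 CPM. NCU16001 varied between libraries of 1 condition, with 3034, 608 and 988 CPM in wild-type light. NCU02188 had 243, 2183 and 221 CPM in light labelled ∆*ve-1* ∆*wc-1* and 169, 1898 and 216 CPM in its dark, with replicate 2 high in both.

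The 6 members with the highest ratios of light to dark in the wild type were NCU17113 (157 times), NCU16408 (93.3), NCU17055 (28.6), NCU00848 (24.8), *gh71-5* (21.3) and *gh71-2* (19.4). In ∆*ve-1* light these genes stood at 1.18, 0.963, 0.0845, 0.396, 0.0854 and 0.224 of the wild-type light mean. NCU17055 had 36.1, 36.2 and 61.0 CPM in ∆*ve-1* light and 16.3, 13.8 and 44.3 CPM in ∆*ve-1* dark, against 604, 784 and 189.8 CPM in wild-type light and 16.1, 16.7 and 22.3 CPM in wild-type dark. The *gh71-5* gene had 45.2, 52.0 and 74.8 CPM in ∆*ve-1* light and 30.7, 38.9 and 54.0 CPM in ∆*ve-1* dark, against 1054, 792 and 168 CPM in wild-type light and 29.8, 36.6 and 28.1 CPM in wild-type dark. The ∆*ve-1* light libraries of both genes lay below every wild-type light library. The 2 *gh71* genes were listed for their high light ratio in the wild type, so nothing is read from sharing it. Their shares of the wild-type light mean in ∆*ve-1* light were 0.0854 for *gh71-5* and 0.224 for *gh71-2*. The median member was also low, at 0.354, so a low share was not particular to these genes. Light over dark in ∆*ve-1* was 1.39 times for *gh71-5* and 2.24 times for *gh71-2*.

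By function, 14 members encode enzymes of the cell wall and of carbohydrate metabolism, the largest group that could be named. They included chitinases (*gh18-4*, *gh18-8*), glucanases (*gh16-1*, *gh17-4*), alpha-glucosidases (*gh31-1*, *gh31-2*) and *cgl-1*, annotated as a conidial beta-glucanase gene. Wild-type light over dark was 3.10 to 21.3 times in this group, and ∆*ve-1* light over dark had a median of 1.18 times with a range of 0.303 to 5.14 times. Between light labelled ∆*ve-1* ∆*wc-1* and light of ∆*ve-1*, 2 of the 14 fell and 5 lay below without overlap, where the shares of all genes were 0.287% and 4.94% and those of the 141 genes 7.09% and 29.1%. The group was formed after its values were seen, and nothing particular to it is read from the counts. One of the 5 was *gh18-4*, with 24.2, 10.7 and 6.86 CPM in light labelled ∆*ve-1* ∆*wc-1* and 126, 33.7 and 98.8 CPM in ∆*ve-1* light (log2 fold change -2.63 ± 0.88, edgeR adjusted p = 0.274, n = 3 each).

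A group of 8 genes for regulators, hyphal fusion and development had wild-type ratios of 3.25 to 12.97 times. The developmental transcription factor gene *ada-6* had 93.5, 60.5 and 43.01 CPM in ∆*ve-1* light and 15.1, 17.3 and 18.4 CPM in ∆*ve-1* dark, against 102, 96.5 and 149 CPM in wild-type light and 37.9, 30.9 and 17.0 CPM in wild-type dark. Light and dark did not overlap in ∆*ve-1*, and in the wild type the rule required this. The transcription factor gene *fld* had 77.3, 124 and 159 CPM in ∆*ve-1* light and 137, 90.0 and 207 CPM in ∆*ve-1* dark, against 434, 413 and 182 CPM in wild-type light and 86.8, 91.1 and 64.9 CPM in wild-type dark. Its ∆*ve-1* libraries overlapped, as did those of *ham-3*, which encodes a STRIPAK component needed for cell fusion and had 42.4, 55.6 and 94.1 CPM in ∆*ve-1* light and 79.1, 47.6 and 66.2 CPM in ∆*ve-1* dark. In the wild type *ham-3* had 242, 103 and 151 CPM in light and 36.2, 46.8 and 38.5 CPM in the dark. The gene *gpr-37*, named as a G-protein-coupled receptor, had 221, 104 and 110.0 CPM in ∆*ve-1* light and 39.0, 61.6 and 79.7 CPM in ∆*ve-1* dark, without overlap. None of the 8 passed the test between the light libraries labelled ∆*ve-1* ∆*wc-1* and ∆*ve-1*, and 3 lay below without overlap.

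Smaller groups were 6 genes of the cell cycle and chromosomes, 3 multidrug transporter genes and 3 genes of porphyrin and cofactor metabolism. The protein kinase gene *cdc7*, whose product starts DNA replication in yeast, had 23.3, 29.2 and 22.1 CPM in ∆*ve-1* light and 10.97, 15.002 and 17.4 CPM in ∆*ve-1* dark, without overlap. The cell cycle group had a median ∆*ve-1* light over dark ratio of 1.38 times, the transporters of 1.13 times and the porphyrin and cofactor group of 1.13 times. The porphyrin gene *ppy-1*, for uroporphyrinogen decarboxylase of haem synthesis, had 383, 53.4 and 59.0 CPM in light labelled ∆*wc-1* and 40.01, 35.5 and 34.5 CPM in its dark. The transporter gene *mdr-8* had 1506, 127 and 133 CPM in light labelled ∆*wc-1* and 67.6, 78.0 and 89.5 CPM in its dark. For both genes replicate 1 was far above replicates 2 and 3, which were above the dark libraries. The remaining 105 members were in none of the 6 groups.

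The 141 genes were spread over the genome. They made up 1.16 to 1.78% of the genes tested on each of chromosomes I to VII, and 139 were protein coding. Adjacent members formed 3 pairs, NCU14012 with NCU01926, NCU00751 with NCU11095 and NCU00333 with NCU00334, of which the last pairs overlap by 906 and 411 bases, so their counts are less certain. Of the members 4.26% had another member as a neighbour, and of the other genes tested 2.69% had one. The median gene length was 2285 bases, against 2169 bases for all genes tested. The 141 genes held 0.598 to 0.774% of all counts in light labelled ∆*ve-1* ∆*wc-1* and 0.542 to 0.637% in its dark. Their share was 0.883 to 1.21% in ∆*ve-1* light, against 0.513 to 0.742% in the dark, 0.890 to 1.88% in light labelled ∆*wc-1*, against 0.811 to 0.862% in its dark, and 2.05 to 3.27% in wild-type light, against 0.799 to 0.927% in wild-type dark.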

How the data were processed

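RNA-seq of 24 libraries was used, 3 for each of 8 conditions. Raw counts for 10561 genes were deposited by the authors without normalization. Before that the authors had trimmed the reads (fastp), aligned them to assembly NC12 of strain OR74A (STAR) and counted reads of the first strand per gene (featureCounts). Gene positions are from RefSeq for NC12, and some names are from the study's annotation.

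TMM-scaled CPM, edgeR's filter on low counts (9412 genes left) and quasi-likelihood tests were run with edgeR 4.0.16 under R 4.3.3. The model had 1 mean for each condition over the 24 libraries, and p-values were adjusted with the Benjamini-Hochberg method over the 9412 genes. SE was the log2 fold change divided by the square root of F. Medians per library used log2 CPM with a prior count of 2. Each SE thus rests on the fit over the 24 libraries and is not the spread between 3 libraries alone. The fit was tested on simulated data. Levels and correlations without replicate 1 of light labelled ∆*wc-1* were added after seeing the data. Alternatives were DESeq2 1.42.0, limma-voom (limma 3.58.1) with quality weights, RLE factors, library totals, no filter, the replicate number as a block, covariates for even counts and for the 10 most abundant genes' share, other limits of the rule and each library left out. Figures were made with matplotlib 3.10.9.

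The members and the lists were chosen with earlier results of these data known. The genes described are list members, called genes, the 6 most abundant members, the 6 with the highest wild-type ratio, those at either end of the ∆*ve-1* ratio without overlap, and those at the edges of the rule. The groups by function and their examples were chosen after their values were seen. Promoter sequences were not used here.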

Additional observations from a re-analysis of the deposited data

Results flagged for a closer look

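The light effect on NCU17113 was larger in ∆*ve-1* than in libraries labelled ∆*ve-1* ∆*wc-1*, by 8.90 on the log2 scale in edgeR's fit. It is listed because the light effect differed between these strains under the call rule. The dark libraries of ∆*ve-1* had entered the choice of genes, so the difference is a description and not an independent test. All 3 light libraries were above all 3 dark libraries in ∆*ve-1*, and light and dark overlapped in libraries labelled ∆*ve-1* ∆*wc-1*.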

How the results depend on the processing

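The rule chose 141 genes, and it chose 80 with library totals, 309 and 47 with a wild-type ratio of at least 2 or 5 times, 82 with ∆*ve-1* dark within 0.67 to 1.5 times wild-type dark, and 104 to 200 with a library left out. For light against dark in ∆*ve-1*, 4 members met the call rule. DESeq2 called 8 on all libraries and 14 (1 lower) on the libraries compared, and limma-voom 18 (2 lower). Either covariate gave 9 (1 lower for abundant genes), and leaving out a library 0 to 6. Over all genes DESeq2 called 61 and 163, limma-voom 335, and the covariates for abundant genes and even counts 23 and 20. The main fit called 8 of all genes higher and 2 lower. The median log2 fold change there was 0.36, and 0.79 with the covariate for even counts. For the libraries labelled ∆*wc-1*, 0 members were called, limma-voom called 5, DESeq2 on all libraries 21, and leaving out a library 0 to 12. Of all genes limma-voom called 286 there, DESeq2 on all libraries 244, and the fit with 12 members 116. With the label ∆*ve-1* ∆*wc-1*, light against dark gave 0 members under every alternative run. In light, 10 members were called between that label and ∆*ve-1*, 18 with either covariate and 17 (1 higher) with DESeq2 on either set of libraries. Leaving out a library gave 4 to 11. Over all genes the covariates for abundant genes and even counts called 131 and 184, and DESeq2 211 and 202. The main fit called 27 of all genes lower and 39 higher. For the difference in light effect, 1 member was called, against 2 with RLE and 2 without the filter. The covariates for abundant genes and even counts gave 3 and 4, and DESeq2 on all and on the compared libraries 2 and 3. Leaving out a library gave 0 to 3. Over all genes RLE and no filter called 5 each, the covariates 7 and 8, and DESeq2 22 and 17. No direction of a called value reversed under the alternatives run. Some same-numbered libraries deviated together and others did not (correlations from -0.34 to 0.58 in the 4 comparisons of conditions checked, which left out the wild type). In none of the 4 was every correlation above 0.1, so the numbers were not taken to pair the samples. Deviations of libraries with different numbers were not compared. With the replicate number as a block, 2 members were called for light in ∆*ve-1* and 7 between the label ∆*ve-1* ∆*wc-1* and ∆*ve-1* in light. The causes of these differences were not tested, except that other limits and scalings change the genes chosen by construction. With 3 libraries a condition, 3 counts correspond to 0.0623 to 0.126 CPM in light labelled ∆*ve-1* ∆*wc-1*, which limits folds of NCU16408.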
